A study of Mus musculus with 8 samples.

Results

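Tmem95 and 3 genes beside it on mouse chromosome 11, Tnk1, Kctd11 and Acap1, were followed in RNA sequenced from sorted lung cells. They are 4 of the 49671 genes of the deposited count table and 4 of the 30127 genes of the authors' comparison table, where all 4 were matched by gene name and identifier. The group was chosen on measured values: Tmem95 was listed at 0 in every control library and above 0 in every library with the SmoM2 label, and the other 3 genes were taken for their place next to it. The Tmem95 values are therefore given as a description, with no test, and the tests below concern the neighbours and other genes.

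The libraries came from 8 adult mice. The 4 control mice were Gli2creERT2-tdt:R26RYFP, in which the Gli2 locus drives a Cre recombinase that tamoxifen activates, together with a Cre-dependent yellow fluorescent protein (YFP) reporter. The other 4 mice were Gli2creERT2-tdt:R26RYFP/SmoM2, which share both alleles and also carry SmoM2, an activated form of the Hedgehog signal transducer Smoothened. Tamoxifen at 200 mg/kg per day was given into the peritoneum for 5 days to switch on Hedgehog signalling in mice with SmoM2. Whether and how control mice were dosed is not given in the sources used here. Live YFP-positive cells were sorted from whole digested lung, so each library is a bulk sample of all cells in which the reporter had been switched on. Exact ages are not given beyond adult. Column names give the group and a number but not the animal, so libraries are named here by group and number.

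Tmem95 encodes a membrane protein of sperm that is needed for sperm and egg to fuse, and it is known as a gene of the testis. Kctd11 encodes a substrate adaptor of the Cullin 3 ubiquitin ligase, which marks the histone deacetylase HDAC1 for degradation and so restrains GLI transcription factors, the end point of Hedgehog signalling. Acap1 encodes a GTPase-activating protein for the small GTPase ARF6 that acts in recycling of membrane cargo, and it is abundant in lymphocytes. Tnk1 encodes a non-receptor tyrosine kinase of the ACK family.

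All 4 genes lie on the minus strand of chromosome 11 (mm10, GENCODE M21, 1-based). In the direction of transcription their order is Acap1, Kctd11, Tmem95 and Tnk1. Acap1 (ENSMUSG00000001588) spans 69881567 to 69895539 and has 4878 exon bases. Kctd11 (ENSMUSG00000046731) spans 69878261 to 69881406 as 1 exon of 3146 bases and starts 160 bases beyond the end of Acap1. Tmem95 (ENSMUSG00000094845) spans 69876684 to 69878018, with 7 exons and 531 exon bases, and begins 242 bases beyond the 3′ end of Kctd11. Tnk1 (ENSMUSG00000001583) spans 69851005 to 69858730, with 3329 exon bases, and lies 17953 bases further on. Transcription of Kctd11 thus runs toward Tmem95 on the same strand.

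The bases that separate Kctd11 from Tmem95, and the first exon of Tmem95, are shown because they are what divides reads of a low gene from reads of the more abundant gene just before it. The first sequence (chr11:69878172-69878260, minus strand, 89 bases, RefSeq, GRCm38.p6) lies outside the GENCODE and RefSeq models of both genes. The second (chr11:69877847-69878018, minus strand, 172 bases, GENCODE M21) is exon 1 of Tmem95, with the start codon in capitals. Both are written 5′ to 3′.
Between Kctd11 and Tmem95: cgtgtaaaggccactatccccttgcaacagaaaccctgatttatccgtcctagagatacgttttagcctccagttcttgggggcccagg
Tmem95 exon 1: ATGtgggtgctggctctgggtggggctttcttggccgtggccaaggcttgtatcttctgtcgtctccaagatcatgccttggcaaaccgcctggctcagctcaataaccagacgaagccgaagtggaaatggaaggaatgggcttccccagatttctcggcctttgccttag

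The GENCODE model of Tmem95 opens at the start codon, whereas the RefSeq model is longer at both ends, from 69876054 to 69878171. Which annotation the authors counted on is not given in the sources used here, so levels per kilobase of Tmem95 rest on the GENCODE exon length. None of the 501 stretches of 31 bases in the Tmem95 transcript occurred in a transcript of another gene, and none of the 4979 in Acap1 did. In Kctd11, 16 of 3116 such stretches (0.513%) were shared. In Tnk1, 884 of 3353 (26.4%) were shared with other genes. The 3′ part of Tnk1 also overlaps Plscr3, a phospholipid scramblase gene on the plus strand, by 1054 bases, and the library kit named in the labels does not mark strand, so reads from that overlap cannot be told apart and Tnk1 values are uncertain to that extent.

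The letters GACCACCCA, the core sequence bound by GLI factors, were searched on both strands (the other strand reads TGGGTGGTC) in RefSeq windows of 300 bases around gene starts. They were in 83 of 32851 windows (0.253%). The windows of Tmem95, Kctd11 and Tnk1 did not hold them. Acap1 has no window in the table used.

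The libraries held 91.6 to 111.6 M units of deposited count. The most frequent value above 0 was 5 units (5793 values, against 4270 at 4). From 8 units on, the number of values rose at each multiple of 4 up to 32 (2872 values at 8 against 1971 at 7, 1879 at 12 against 1436 at 11). It also rose at 26 (726 values against 690 at 25) and at 30 (672 against 590 at 29). Of the values from 8 to 39, 30.8% were multiples of 4, against 27.4% that were 1 above one. A sequenced fragment was therefore taken as about 4 units, an estimate that gives 22.9 to 27.9 M fragments per library. Stromal markers were abundant, with Pdgfra, a receptor of lung fibroblasts, at 1748 ± 293 CPM in control and 1966 ± 155 in SmoM2-labelled libraries (SD, n = 4). The 3 genes measured here that report Hedgehog activity had group means that differed by less than the SD of either group (values below), and no other reading of the SmoM2 allele was made, so the second group is called SmoM2-labelled. Xist and Y-linked genes showed 2 male and 2 female libraries in each group. CPM values are counts scaled to a common library size, here adjusted by TMM, a method that centres most genes between libraries.

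Tmem95 was listed at 0 units in control libraries 1, 2, 3 and 4. In SmoM2-labelled libraries 1, 2, 3 and 4 it was listed at 144, 78, 71 and 77 units. At 4 units a fragment these are 36.0, 19.5, 17.8 and 19.3 fragments. The 2 groups did not overlap, and library SmoM2 1 was the highest with close to the same value in the other 3. Exact Poisson 95% intervals, which cover counting error only, ran from 25.2 to 49.8 fragments in SmoM2 1 and from 10.5 to 28.1 in SmoM2 3, the lowest. In CPM the SmoM2-labelled libraries stood at 1.40, 0.891, 0.658 and 0.729, a mean of 0.920 ± 0.335 (SD, n = 4). At a 1-sided Poisson limit of 95%, a count of 0 allows up to about 3 fragments, or 12 units, which is 0.101 to 0.131 CPM in the control libraries. Against the mean of those control limits, the SmoM2-labelled mean was 7.69-fold higher. The lowest SmoM2-labelled library was 5.04-fold above the highest control limit. The counting error of the SmoM2-labelled values is not part of these ratios. The intervals given above are 2-sided and end at 3.69 fragments for a count of 0, and that limit would lower both ratios. At 5 units a fragment, the most frequent value, the SmoM2-labelled libraries held 14.2 to 28.8 fragments and the ratio of means was 6.15-fold. The level was low in absolute terms, at the 18.1 percentile of mean CPM among the 20162 genes that passed the expression filter, which Tmem95 passed only through the SmoM2-labelled group.

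**Figure D1:**
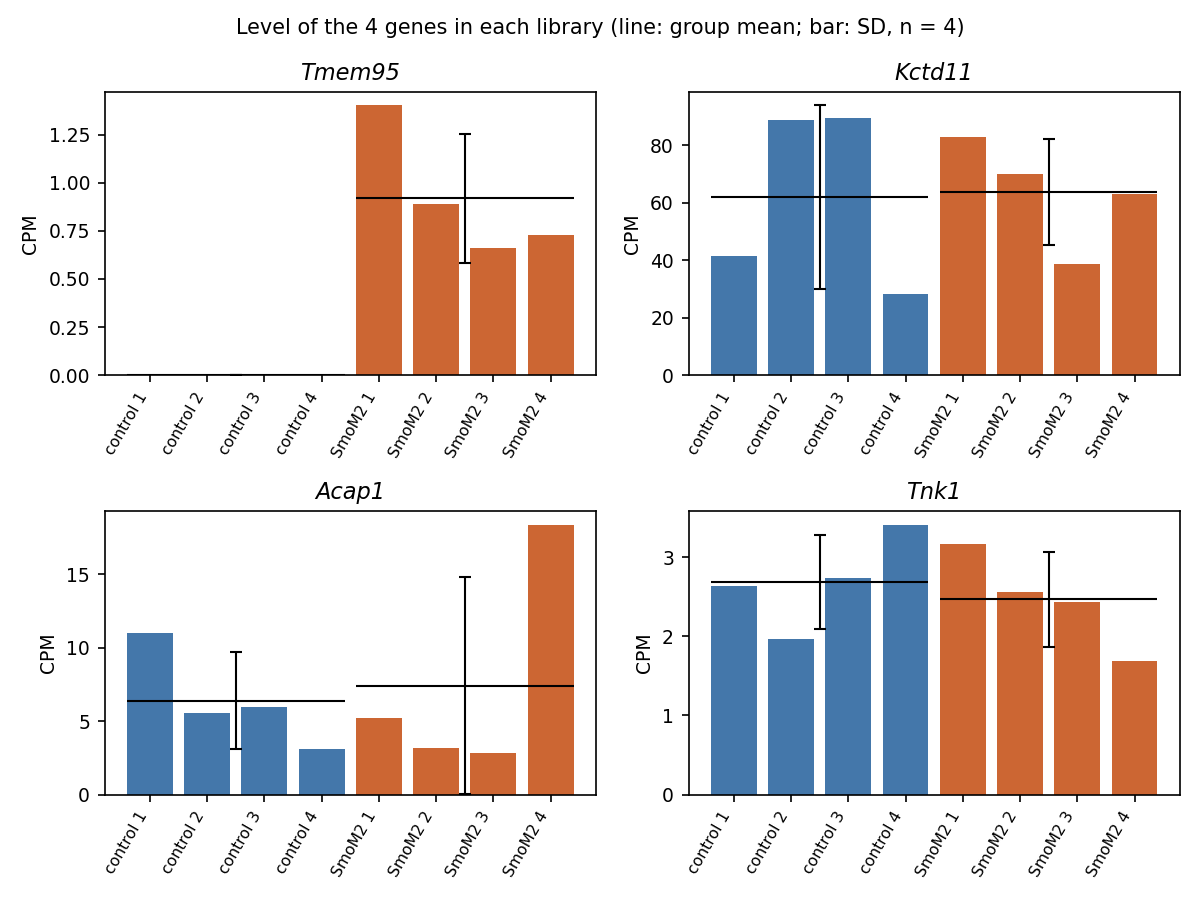
CPM of the 4 genes in each of the 8 libraries (y axes, linear from 0, scaled per gene), with the group mean as a line and the SD as a bar (n = 4). Tmem95 is at 0 in the 4 control libraries and between 0.658 and 1.40 in the 4 SmoM2-labelled libraries, while the groups overlap for Kctd11, Acap1 and Tnk1.

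By sex, the male SmoM2-labelled libraries (1 and 2) had 144 and 78 units and the female ones (3 and 4) had 71 and 77, while the 2 control libraries of each sex had 0, as the rule that chose the gene requires. In the authors' deposited table the normalised mean of Tmem95 was 0 in control and 92.4 in SmoM2. The authors' deposited table lists the fold change and log2 fold change of Tmem95 as 0. In the authors' deposited table this is how 1717 of the 1836 rows with a control mean of 0 and a SmoM2 mean above 0 are written, and the other 119 are blank, so a search of that table by fold change does not find Tmem95.

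The pattern of 0 in every library of one group and above 0 in every library of the other was counted over all genes. It held for 18 of 30158 genes with a value above 0 somewhere (0.0597%) with control at 0, and for 16 (0.0531%) with SmoM2-labelled libraries at 0. With at least 12 units in each library of the higher group, 1 gene (0.00332%) met the first pattern, which was Tmem95. The reverse was met by 2 genes (0.00663%), the immunoglobulin heavy chain variable genes Ighv14-2 and Ighv1-58, whose control means were 82.5 and 41.5 units. Just inside the rule that chose Tmem95, the next genes by mean were Gm45643, at 9 to 32 units in the SmoM2-labelled libraries, and Pvrig, an immune receptor gene, at 3 to 25 units. Because the rule was built on these values, nothing is read from those shares.

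The counts below are read against all genes tested. Between the groups edgeR called 0 of 20162 (0%) at an adjusted p under 0.05, with 756 (3.75%) at an unadjusted p under 0.05. Groups that did not overlap were seen in 492 genes (2.44%), of which 206 (1.02% of those tested) were higher in SmoM2-labelled libraries and none was Kctd11, Acap1 or Tnk1. DESeq2 called 65 of 24769 genes (0.262%), with 1233 at an unadjusted p under 0.05, and limma-voom called 0, with 784. With 0 genes called in all by edgeR, a list with none called does not stand apart from the other genes.

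The 6 mesothelial markers had lower means in the SmoM2-labelled libraries. Their summed level was 159 to 374 CPM in control and 83.0 to 154 CPM in SmoM2-labelled libraries. Groups did not overlap for 2 of the 6, Msln and Upk3b, against 2.44% of all genes, and they did for Wt1, at 5.20 ± 3.34 and 4.52 ± 3.24 CPM. Msln, which encodes the surface protein mesothelin, stood at 101 ± 31.9 CPM (control) and 38.3 ± 12.5 CPM (SmoM2-labelled; SD, n = 4). By edgeR, 4 of the 6 had an unadjusted p under 0.05, against 3.75% of all genes. None of the 6 was called by edgeR, none was at 0 in every library of a group, and their part in the Tmem95 values was not tested. In bulk RNA, fewer cells of a type and less RNA per cell cannot be told apart.

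The other genes of sperm and egg fusion were looked at as a list. Of its 16 genes, 14 were in the table, 10 had a value above 0 in some library, and 8 besides Tmem95 were tested, with 5 higher, 3 lower and a median log2 fold change of 0.14, against -0.004 over all tested genes. None of the 8 was called by edgeR (0% of all genes were) or had an unadjusted p under 0.05 (3.75% of all genes had). Izumo2, Izumo3, Llcfc1 and 4930451I11Rik, all known as sperm genes, were at 0 in all 8 libraries. Izumo1, the sperm protein that binds the egg, was at 9, 9, 11 and 38 units in control and at 2, 9, 1 and 0 units in SmoM2-labelled libraries, too low to test.

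The partner of IZUMO1 on the egg, Izumo1r, stood at 0.134 ± 0.159 CPM in control and 0.175 ± 0.131 in SmoM2-labelled libraries (SD, n = 4). The sperm genes Spaca6 (38.6 ± 13.2 and 42.8 ± 9.94 CPM), Izumo4 (12.4 ± 0.536 and 10.4 ± 1.80) and Tmem81 (4.16 ± 1.87 and 3.54 ± 0.312) were present in both groups. Dcst1 (0.281 ± 0.180 and 0.359 ± 0.268 CPM) and Dcst2 (0.0997 ± 0.0378 and 0.0695 ± 0.0527) were low in both. The tetraspanins Cd9 (178 ± 42.5 and 220 ± 47.9 CPM) and Cd81 (504 ± 22.4 and 549 ± 32.9), which many somatic cells carry, were abundant in both.

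Markers of germ cells ranged from 0 to the level of Odf2. Of 18, 13 had a value above 0 in some library and 5 were at 0 in every library, including the protamine gene Prm2, the transition protein gene Tnp1 and the sperm tail genes Akap4 and Odf1, and the fifth was Pgk2. Of the 6 tested, 4 were higher and 2 lower, none was called by edgeR, and the median log2 fold change was 0.04. The summed level was 46.9 to 61.3 CPM in control and 54.8 to 59.4 CPM in SmoM2-labelled libraries. Most of it was Odf2, a centrosome gene also used by somatic cells, at 50.0 ± 4.85 and 51.2 ± 1.95 CPM, followed by Acrbp at 4.34 ± 2.53 and 4.47 ± 2.40 CPM (SD, n = 4). Zpbp, a gene of the sperm acrosome, was at 0.574 ± 0.0571 and 0.684 ± 0.0767 CPM.

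Kctd11 was listed at 3905, 8914, 8200 and 3322 units in control libraries 1 to 4. In SmoM2-labelled libraries 1 to 4 it was listed at 8509, 6118, 4178 and 6670 units. In CPM, control libraries held 41.3, 88.9, 89.3 and 28.1, and SmoM2-labelled libraries held 82.8, 69.8, 38.7 and 63.2. The groups overlapped, with the highest and the lowest value both in control. The means were 61.9 ± 31.9 and 63.6 ± 18.5 CPM (SD, n = 4). The log2 fold change was 0.04 (SE 0.39, 95% interval -0.85 to 0.93), with an edgeR adjusted p of 0.9999. The values of these libraries allow a change of any size within that interval. Within males the difference of mean log2 CPM was 0.32 and within females -0.01, with 2 libraries in each group.

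Kctd11 varied more between mice than most of its neighbours. Its highest library was 3.18-fold above its lowest, a spread reached by 8.28% of the 11395 tested genes with a mean above 5 CPM, whose median was 1.49-fold. Of the 12 neighbours within 100 kb of Tmem95 above 5 CPM, the 10 other than Kctd11 and Acap1 ranged from 1.23-fold to 1.66-fold. The low libraries for Kctd11 were control 4, SmoM2 3 and control 1. Control 4 and SmoM2 3 also had the highest summed level of 8 epithelial markers (1272 and 770 CPM, against 197 to 369 in the other 6). Most of that sum was Sftpc (992 and 564 CPM). Sftpb and Cdh1 were also highest there, but Scgb1a1 was lowest (33.8 and 23.5 CPM). The same libraries had the lowest summed level of 7 stromal markers (11221 and 13069 CPM), mostly Col1a1, Col1a2 and Dcn. Gli2 was lowest there too (35.8 and 37.7 CPM), but Tcf21 was highest (270 and 223 CPM) and Pdgfra was not low (2042 and 2059 CPM). Control 1 had 265 CPM of epithelial and 21160 CPM of stromal markers, and the part of these cells in the Kctd11 spread was not tested.

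Tmem95 and Kctd11 had the same order in the 4 SmoM2-labelled libraries, highest in library 1 and then 2, 4 and 3. For Tmem95 the order among libraries 2, 4 and 3 is within counting error (78, 77 and 71 units). Their Poisson 95% intervals were 11.8 to 30.3, 11.6 to 30.0 and 10.5 to 28.1 fragments. Per kilobase of GENCODE exon, Tmem95 reached 10.03, 7.55, 10.07 and 6.84% of the Kctd11 level in SmoM2-labelled libraries 1 to 4. In the control libraries the same share was 0, which the choice of Tmem95 fixed, with limits of 1.82, 0.798, 0.867 and 2.14% from a count of 0. Control 2 and control 3 had the highest Kctd11 of all 8 libraries and no unit of Tmem95. These are descriptions, and no relation between the 2 genes was tested.

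**Figure D2:**
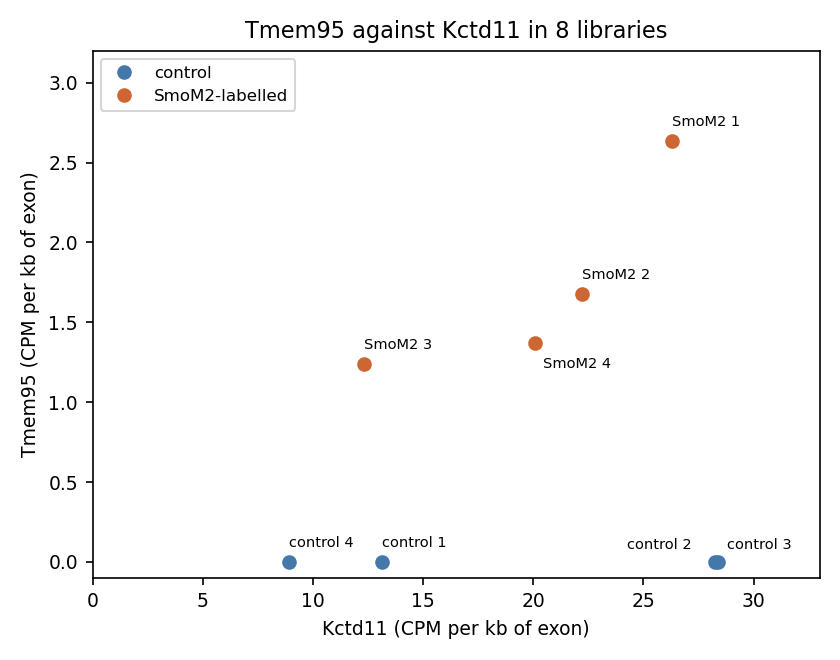
Tmem95 (y axis) against Kctd11 (x axis) in 8 libraries, both in CPM per kilobase of GENCODE exon. Control 2 and control 3 lie furthest right, at 28.2 and 28.4 for Kctd11, and at 0 for Tmem95, while the 4 SmoM2-labelled libraries lie between 1.24 and 2.64 for Tmem95.

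Per kilobase, the order of mean levels in the SmoM2-labelled group was Kctd11 (20.2 ± 5.87 CPM per kb), Tmem95 (1.73 ± 0.631), Acap1 (1.52 ± 1.51) and Tnk1 (0.742 ± 0.182; SD, n = 4). Tmem95 and Acap1 lay within each other's spread, and Kctd11 was above all 3 in every library. These levels use GENCODE exon lengths, which is 531 bases for Tmem95. A longer exon length would lower its level, so its place beside Acap1 and Tnk1 rests on that model. In control the order was Kctd11 (19.7 ± 10.1 CPM per kb), Acap1 (1.31 ± 0.677) and Tnk1 (0.808 ± 0.178), with Tmem95 at 0. There the ranges of Acap1 and Tnk1 overlapped.

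The Kctd11 ubiquitin ligase and its targets were taken as a list. Of 7 genes, Kctd11 included, 3 were higher and 4 lower, with a median log2 fold change of -0.004, and none was called by edgeR, as for all genes (0%). The related adaptors Kctd21 and Kctd6 stood at 6.58 ± 2.68 and 15.9 ± 1.84 CPM in control and at 6.35 ± 1.63 and 16.2 ± 2.35 in SmoM2-labelled libraries (SD, n = 4). Cul3, the ligase scaffold, was 84.3 ± 5.14 and 84.1 ± 7.37 CPM, and Rbx1, its RING subunit, 46.2 ± 8.23 and 42.5 ± 2.76. The deacetylase genes Hdac1 (49.0 ± 6.35 and 55.3 ± 6.60 CPM) and Hdac2 (65.5 ± 3.11 and 63.8 ± 2.10) differed by 0.18 and -0.04 on the log2 scale.

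Direct readouts of GLI activity were also measured. Gli1, itself a GLI factor, was 99.3 ± 32.9 CPM in control and 101 ± 21.5 in SmoM2-labelled libraries. Ptch1, the Hedgehog receptor, was 173 ± 57.4 and 159 ± 50.8 CPM. Hhip, a Hedgehog-binding inhibitor, was 353 ± 101 and 414 ± 198 CPM (SD, n = 4 for each). Of these 3, 2 were higher and 1 lower, with a median log2 fold change of 0.03 and none called by edgeR.

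**Figure D3:**
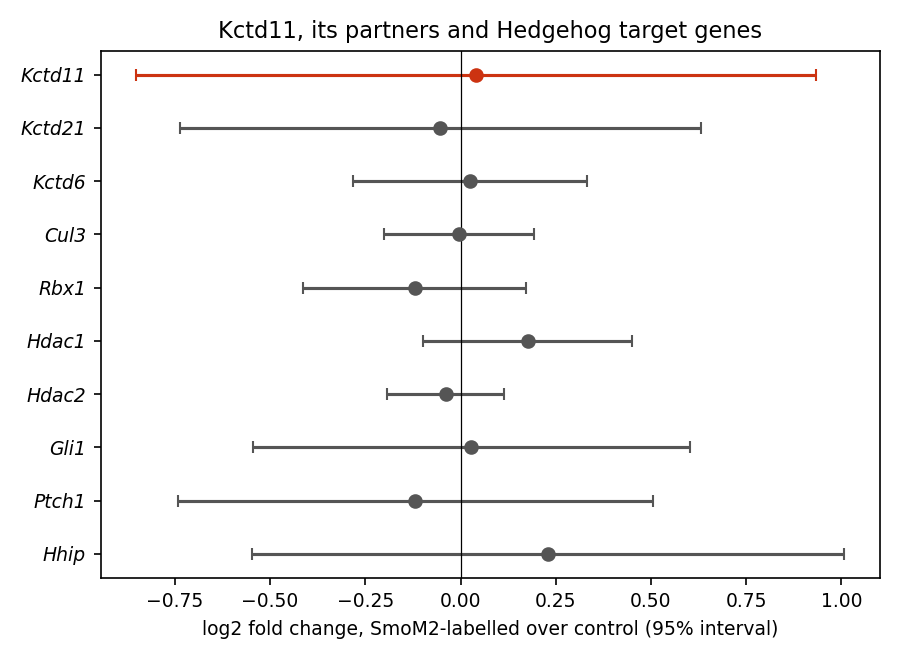
Log2 fold change, SmoM2-labelled over control (x axis), of Kctd11, 6 genes of its ubiquitin ligase and targets and 3 Hedgehog target genes (y axis), with 95% intervals from edgeR. Every interval includes 0, and that of Kctd11 runs from -0.85 to 0.93.

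In the wider KCTD family, 24 genes were tested, with 10 higher, 14 lower, a median of -0.05 and none called by edgeR. Kctd10 and Kctd12 had the highest means, at 513 ± 63.9 and 81.7 ± 14.4 CPM in control and 455 ± 42.2 and 104 ± 40.7 in SmoM2-labelled libraries (SD, n = 4). By edgeR's quasi-likelihood test across all genes, 2 members had an unadjusted p under 0.05, against 3.75% of all genes tested. They were Kctd20 (log2 fold change 0.73) and Kctd5 (-0.28), named after their values were seen.

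Acap1 stood at 10.96, 5.57, 5.94 and 3.09 CPM in control libraries 1 to 4. In SmoM2-labelled libraries 1 to 4 it stood at 5.19, 3.19, 2.84 and 18.4 CPM. Library SmoM2 4 was highest and control 1 next, and the groups overlapped. The means were 6.39 ± 3.30 and 7.39 ± 7.38 CPM (SD, n = 4), with a log2 fold change of 0.21 (SE 0.64, 95% interval -1.25 to 1.67) and an edgeR adjusted p of 0.9999. Without SmoM2 4 the log2 fold change was -0.77. Within males the difference of mean log2 CPM was -0.98 and within females, who include SmoM2 4, it was 0.80.

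Lymphocyte markers followed the same libraries as Acap1. The summed level of 14 markers was 101, 46.5, 37.7 and 19.98 CPM in control libraries 1 to 4 and 44.0, 23.5, 18.6 and 158 CPM in SmoM2-labelled libraries 1 to 4. None of the 14 was at 0 in all libraries. With the SmoM2 label 8 of them were higher and 6 lower, with a median log2 fold change of 0.20 and none called by edgeR. Cd4 and Lck, a T cell coreceptor and kinase, had the highest mean CPM of the list. The part of lymphocytes in the Acap1 values was not tested.

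The 3 genes whose log2 CPM was most like that of Acap1 over 8 libraries were Cd3e (Pearson r = 0.99), a chain of the T cell receptor complex, Fcho1 (0.98), which acts in endocytosis, and Cdca8 (0.98), which acts in chromosome segregation. Cd3e stood at 8.34, 3.21, 3.68 and 2.16 CPM in control and at 3.64, 1.72, 1.31 and 13.8 CPM in SmoM2-labelled libraries, with the same 2 libraries highest. A list of 8 markers of immune and myeloid cells had all 8 higher with the SmoM2 label, by a median log2 fold change of 0.60, with none called by edgeR. Their sum was 347 to 523 CPM in control and 341 to 1098 CPM in SmoM2-labelled libraries, highest in SmoM2 4 and lowest in SmoM2 1. Ptprc stood at 93.0 CPM in SmoM2 4, against 25.6 to 45.0 in the other SmoM2-labelled libraries and 23.6 to 47.2 in control. Itgam and S100a8 were highest in SmoM2 2, and the other markers of the list in SmoM2 4.

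**Figure D4:**
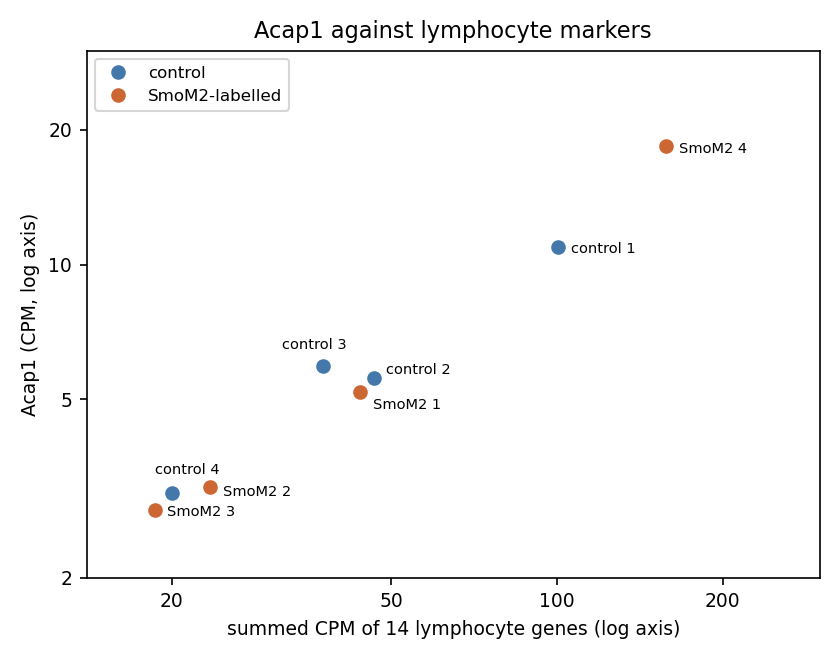
Acap1 (CPM, log axis, y) against the summed CPM of 14 lymphocyte markers (log axis, x) in 8 libraries. SmoM2 4 (158 and 18.4 CPM) and control 1 (101 and 10.96 CPM) are highest on both axes.

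The GTPase-activating genes for ARF proteins were taken as a family. Of 23 on the list, Acap1 included, 14 were higher and 9 lower, with a median log2 fold change of 0.05 and none called by edgeR. The most abundant were Acap2, at 224 CPM in control and 242 in SmoM2-labelled libraries, and Arap1, at 212.6 and 213.5 CPM. The summed level of the list lay between 1358 and 1511 CPM in all 8 libraries.

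Tnk1 stood at 2.63, 1.96, 2.75 and 3.41 CPM in control libraries 1 to 4 and at 3.17, 2.57, 2.44 and 1.70 CPM in SmoM2-labelled libraries 1 to 4. The groups overlapped, and the highest library was control 4 and the lowest SmoM2 4. The means were 2.69 ± 0.594 and 2.47 ± 0.606 CPM (SD, n = 4), with a log2 fold change of -0.12 (SE 0.25, 95% interval -0.70 to 0.46) and an edgeR adjusted p of 0.9999. Its closest relative, Tnk2, which encodes the ACK1 kinase, was 75.6 ± 7.90 CPM in control and 61.0 ± 6.95 in SmoM2-labelled libraries. That is a log2 fold change of -0.31 (95% interval -0.55 to -0.06). The unadjusted edgeR p of Tnk2 was 0.0191, and 3.75% of all genes tested had one under 0.05. Neither kinase was called by edgeR after adjustment.

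Within 100 kb of Tmem95 lie 23 other annotated genes, of which 22 had a value above 0 and 1, Gm12310, was at 0 throughout. Of 19 tested, 8 were higher and 11 lower, the median log2 fold change was -0.07 against -0.004 for all tested genes, and none had an unadjusted edgeR p under 0.05 (3.75% of all genes had) or groups that did not overlap (2.44% of all genes). DESeq2 called none of them. The values ran from -0.90 (2810408A11Rik, at 0.751 and 0.400 CPM) to 0.49 (Slc2a4, the insulin-responsive glucose transporter). The 12 neighbours above 5 CPM all lay within 0.21 of 0.

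Downstream of Tmem95 the nearest 3 were Tnk1, Plscr3 (63.3 ± 5.31 and 57.1 ± 4.70 CPM, log2 fold change -0.15) and Tmem256 (14.9 ± 0.385 CPM in control, -0.07). Upstream they were Kctd11, Acap1 and Mir6924, a microRNA gene inside Acap1 that reached at most 4 units and was not tested. Spem1, a gene of sperm maturation 54503 bases downstream, was at 0.616 CPM in control and 0.498 in SmoM2-labelled libraries.

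**Figure D5:**
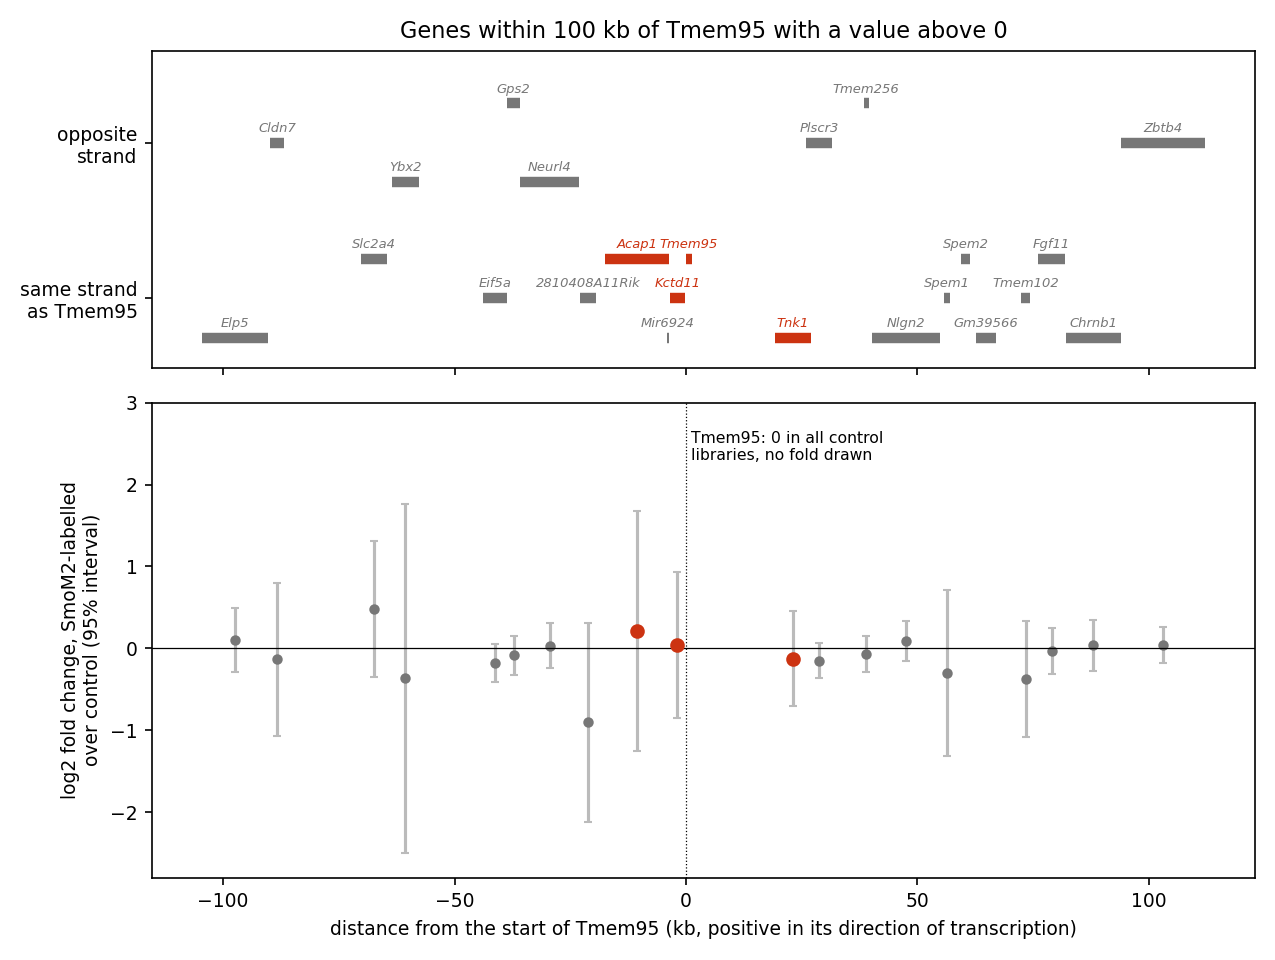
Top: the genes within 100 kb of Tmem95 with a value above 0, by distance in kilobases from its start (x axis, positive in its direction of transcription), with the 4 genes described here in red and Mir6924 drawn wider than its 63 bases so that it shows. Bottom: log2 fold change, SmoM2-labelled over control, with 95% intervals from edgeR for the 19 tested neighbours, which run from -0.90 to 0.49 with every interval including 0.

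The genes most like Tmem95 in log2 CPM over 8 libraries lay on other chromosomes. They were Arpp19 (Pearson r = 0.96), an inhibitor of a protein phosphatase, Nupr1 (0.95), a stress-response gene, Ica1l (0.94), Ecpas (0.94), a proteasome adaptor, and Entpd5 (0.94), an endoplasmic reticulum nucleotidase. Arpp19 was 21.8 ± 2.11 CPM in control and 37.2 ± 2.39 in SmoM2-labelled libraries, and Nupr1 was 94.8 ± 6.12 and 151 ± 15.9 CPM. Ica1l, at 0.225 ± 0.0295 and 0.791 ± 0.162 CPM, was low like Tmem95 (SD, n = 4 for each). Since Tmem95 has 1 value in all control libraries, this likeness picks genes that split the groups, and none of the 5 was called by edgeR.

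The genes most like Kctd11 over 8 libraries were Bhlhe40 (r = 0.996), a transcriptional repressor of the circadian clock and stress responses, Tnfrsf12a (0.99), the receptor of the cytokine TWEAK, and Rab3il1 (0.99). Bhlhe40 was at 391, 703, 661 and 308 CPM in control and at 651, 576, 362 and 551 CPM in SmoM2-labelled libraries, low in the same 3 libraries as Kctd11. For Tnk1 they were Eif2b3 (0.96), Dhrs4 (0.96) and Bloc1s2 (0.95). Among the 3 neighbours themselves r was 0.23 for Kctd11 and Acap1, -0.34 for Tnk1 and Kctd11, and -0.59 for Tnk1 and Acap1. All these are descriptions over libraries, with n = 8, and no relation was tested.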

How the data were processed

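Polyadenylated RNA of YFP-positive lung cells from 8 mice was sequenced on an Illumina HiSeq, per the labels' protocols. Tools listed in the submitters' processing notes are HISAT, StringTie, FastQC and DESeq, with build mm10 and no versions or roles. The authors deposited 1 table of expected counts per Ensembl gene, already rounded to whole numbers, which were used as they are. The authors' deposited comparison table holds, per the file headers, the normalised signal averaged by group, the fold change as a ratio, that ratio as log2, and p-values before and after adjustment. Symbols came from the reference for 99.3% of identifiers.

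The 4 control and 4 SmoM2-labelled libraries were compared with edgeR 4.0.16 (R 4.3.3; quasi-likelihood test, TMM factors, filterByExpr, robust dispersion, group as the sole term), with Benjamini-Hochberg adjustment over 20162 genes and a threshold of 0.05. SE was obtained by dividing the size of the log2 fold change by the root of F. Log2 CPM used a prior count of 2. Counting intervals and limits of a count of 0 assume 4 units a fragment, estimated from the low values. Alternatives used DESeq2 1.42.0, limma 3.58.1, other scalings, filters, a sex term, rescaled counts and each library left out.

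The genes and lists were chosen with earlier results of these data known. The lists are gamete fusion, germ cell, Kctd11 ligase, Hedgehog targets, KCTD family, ACK kinases, ARF GTPase-activating genes, and stromal, lymphocyte, myeloid, endothelial, epithelial and mesothelial markers. Named were the 4 genes, the 3 nearest genes on each side, the 3 genes (5 for Tmem95) most correlated with each, every reported member of the 4 short lists, and in other lists the 2 most abundant and any called. No list member was called by edgeR. A further Hedgehog target is not reported here.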

Additional observations from a re-analysis of the deposited data

Results flagged for a closer look

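Acap1 in library SmoM2 4 stood at 18.4 CPM, apart from the other 3 SmoM2-labelled libraries, whose highest was 5.19 CPM. Its distance to the next library was 0.848 of the whole range of the group, over the limit of 0.829 for 4 values. This limit is passed by chance in about 5% of groups, and 7 groups were looked at. The 14 lymphocyte markers summed to 158 CPM in the same library, and their part in the value was not tested.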

How the results depend on the processing

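The 4 libraries a group limit what could be seen: the 95% intervals of Kctd11 and Acap1 include changes of more than 0.8 on the log2 scale, and Tmem95 rests on at most 36.0 fragments a library at 4 units each. edgeR called 0 genes, DESeq2 called 65, and leaving out each library in turn gave 0 to 1 (the 1 being Gm20716, log2 fold change -14.1, adjusted p = 0.0320, without SmoM2 4). Called neighbours of Tmem95 stayed at 0 in all 15 alternatives. With each library left out, the log2 fold change ran from -0.27 to 0.02 for Tnk1 (0.01 without control 4, 0.020 without SmoM2 4), from -0.20 to 0.27 for Kctd11 (-0.11 without control 1, -0.20 without control 4, -0.12 without SmoM2 1, -0.01 without SmoM2 2) and from -0.77 to 0.60 for Acap1 (-0.02 without control 4, -0.77 without SmoM2 4). With limma-voom the log2 fold change of Acap1 was -0.041. The smallest edgeR, DESeq2 or limma adjusted p over these alternatives was 0.968 for Tnk1, 0.959 for Kctd11 and 0.943 for Acap1, and the cause of the changes of sign was not tested. The mean of Tmem95 in SmoM2-labelled libraries ran from 0.759 to 1.01 CPM with a library left out. Division of the counts by 4 was added after seeing the data. No paired analysis was possible because the column numbers are not tied to animals and the sample labels give no pairing of animals between the groups.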

Other observations

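Among 1837 genes at 0 in every control library and above 0 in some SmoM2-labelled library, Tmem95 ranked 4 by its SmoM2-labelled mean. Endothelial markers had 1 of 8 higher and 7 lower in SmoM2-labelled libraries, with a median log2 fold change of -1.12 and none called by edgeR. For 2 of the 8, Kdr and Esam, groups did not overlap (2.44% of all genes) and the unadjusted edgeR p was under 0.05 (3.75% of all genes). Control 4 was the highest library for Pecam1, Cdh5, Cldn5, Esam, Emcn and Vwf, but not for Kdr or Tek. Cdh5 stood there at 44.4 CPM, against 4.49 to 8.60 in the other control libraries. Pecam1 was at 32.8 CPM against 7.63 to 9.42, and Cldn5 at 16.6 against 1.78 to 2.64. The part of control 4 in the median was not tested. The sum of the 8 was 69.3 to 175 CPM in control and 71.2 to 126 CPM in SmoM2-labelled libraries. Its largest part was Tek, the 1 that was higher, at 37.2 ± 15.1 and 59.6 ± 29.9 CPM (SD, n = 4). Of 8 epithelial markers 1 was higher and 7 lower (median -0.34), of 6 mesothelial markers all were lower (median -1.25), and of 7 stromal markers 3 were higher and 4 lower (median -0.02), with none called by edgeR.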
